A study of Mus musculus with 6 samples.

Results

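Heterotrimeric G proteins relay signals from receptors at the cell surface, and each is built from an alpha, a beta and a gamma subunit. The beta subunit is a ring of WD repeats, the gamma subunit is a short helical protein wrapped along it, and both form a dimer that does not come apart in the cell. After a receptor loads the alpha subunit with GTP, the beta-gamma dimer is free to act on its own effectors, among them PI3K isoforms, phospholipase C beta, adenylyl cyclases and G protein-coupled receptor kinases. The genes described here are 10 of this family, the beta genes *Gnb1*, *Gnb2*, *Gnb4* and *Gnb5* and the gamma genes *Gng2*, *Gng4*, *Gng5*, *Gng10*, *Gng11* and *Gng12*. They were taken by symbol from a table of 18152 genes, and all 10 had a row and passed the filter on low counts. The list of 10 was chosen by gene family with the counts and TPM of these same libraries, compared between genotypes, in view, so their differences between genotypes are described with their errors, no p is given for a member, and counts of calls support nothing.

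The libraries came from the inner enamel epithelium (IEE) of the mandibular first molar at E18.5, cut out by laser capture microdissection. Each genotype had 3 libraries, on a C57BL/6J background. The genotypes were *Kdf1* fl/fl, called control here, and *K14-Cre;Kdf1* fl/fl, called cKO. Both groups carry the floxed *Kdf1* alleles, and in cKO mice Cre under the keratin 14 promoter deletes the gene in all epithelia that use this promoter, not in the tooth alone. The labels also call the controls WT, and they name biological replicates but neither the litter nor the number of embryos behind a library. *Kdf1* had 731 to 836 counts in control libraries and 0, 1 and 0 in cKO libraries, at least 252-fold lower at a limit of 3 counts per library.

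Library totals ranged from 14713918 to 16675133 counts, and a count of 0 allowed up to 0.182 to 0.198 CPM (counts per 1000000 counts of the scaled library), which covers counting error only. The IEE label was checked with 10 dental epithelial markers, which were all detected in every library. Their summed TPM (transcript abundance scaled by the authors for gene length and library) was 8196 to 11259 in control and 4882 to 8031 in cKO libraries, with no overlap, and 3 of the 10 had the higher mean in the latter. Markers of other cell types were present in every library. The summed TPM of 10 dental papilla markers was 1961 to 9236 and 4820 to 6102 in the same order of groups, with 7 of 10 higher on average in the cKO group. That of 9 endothelial markers was 184 to 260 and 232 to 767, and that of 9 immune markers 76.4 to 164 and 137 to 494, with all 9 higher on average in both lists. The 6 neutrophil markers summed to 18.4 to 23.1 and 152 to 383 TPM. cKO replicate 1 had the highest endothelial, immune and neutrophil sums of all 6 libraries. In tissue samples, fewer cells of a type and less RNA per cell cannot be told apart.

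The gamma subunits differ, among other things, in the lipid that anchors them to the membrane. Each ends in a CaaX box, in which a cysteine receives a lipid, and the last residue sets which lipid that is: leucine calls for geranylgeranyl and serine for farnesyl. The last 30 coding bases of the 6 gamma genes are shown because they separate *Gng11*, which is described further below, from the other 5. They run 5′ to 3′ in the sense of the gene, include the stop codon, and have the last amino acid codon in capitals. They are from the GENCODE M21 transcripts on GRCm38, and the build behind the deposited table is not given in the sources used here.
Gng2: gagaagaagttcttctgcgccatcCTTtaa
Gng4: gagaagaagttcttctgcaccatcCTCtaa
Gng5: agaccccagaaagtctgctcctttTTGtag
Gng10: cgggagcccaggtcctgtgctctaCTTtga
Gng11: aaagaaaagggcagctgtgtcattTCAtaa
Gng12: aaggataagaagacctgcatcatcTTAtag

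The codon in capitals stands for leucine in 5 genes and for serine in *Gng11* alone, and all 6 have a cysteine codon 3 codons before it. Each stretch lies within 1 coding exon. Those of *Gng2* (chr14:19875807-19875836) and *Gng4* (chr13:13825346-13825375) are on the minus and the plus strand. On the plus strand are also those of *Gng5* (chr3:146503356-146503385), *Gng10* (chr4:59039323-59039352), *Gng11* (chr6:4008131-4008160) and *Gng12* (chr6:67017560-67017589). Over the whole coding sequence, *Gng2* and *Gng4* were the most alike of the 15 gamma pairs, with 73.7% identical bases, and *Gng4* and *Gng11* the least, with 49.1%. Among the beta genes, *Gnb1*, *Gnb2* and *Gnb4* shared 75.9% to 77.2% of coding bases with each other and 53.5% to 54.8% with *Gnb5*.

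Likeness of this kind could let reads be assigned to the wrong gene, so every stretch of 50 bases in the main transcript of each member was looked up in the transcripts of all other GENCODE genes. *Gnb1*, *Gnb4*, *Gng4* and *Gng11* shared no such stretch. *Gnb2*, *Gnb5*, *Gng5* and *Gng12* shared 1.81% to 5.70% of theirs, *Gng5* mainly with processed pseudogenes. *Gng2* shared 22.7%, nearly all with *Gm48283*, a long non-coding gene on the opposite strand, and the strand setting of the counting is not given in the sources used here. *Gng10* shared 78.9% with *Gm20503*, a protein-coding gene on the same strand with 946 exonic bases in common. Neither *Gm48283* nor *Gm20503* is among the deposited genes. The share of *Gng5* is of a transcript of 2419 bases. In control replicate 1 its 1130 counts stood for 452 TPM, while 142 counts of *Gng11*, with 919 bases, stood for 26.9 TPM. The length behind the deposited TPM of *Gng5* thus appears shorter than 2419 bases, and its shared part may be larger. The values of *Gng10*, *Gng2* and *Gng5* are therefore uncertain. The deposited counts of *Gnb4* were not whole numbers in any of the 6 libraries, while those of the other 9 members were whole in all 6. How its reads were assigned is not given in the sources used here, so the values of *Gnb4* are uncertain too.

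Levels of different genes are compared as TPM, which for *Gng5*, *Gng10*, *Gng2* and *Gnb4* carry the uncertainty given above. In the control libraries *Gng5* was the most abundant member with 481 ± 25.2 TPM (SD, n = 3), followed by *Gnb2* with 399 ± 15.6 and *Gnb1* with 270 ± 10.5 TPM, and the libraries of these neighbours did not overlap. *Gng4* was next with 107 ± 49.5 TPM, a level that overlapped with that of *Gng10* at 56.5 ± 13.0 TPM. *Gnb5*, *Gng2*, *Gng11* and *Gng12* lay between 38.8 and 25.1 TPM on average, each overlapping with the next. *Gnb4* was the lowest at 3.47 ± 0.642 TPM, apart from all others. In the cKO libraries the first 3 places and the last were held by the same genes, and *Gng4* was sixth of the 10, behind *Gng10* and *Gng11*. Between these, each gene overlapped with the next in that group.

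**Figure D1:**
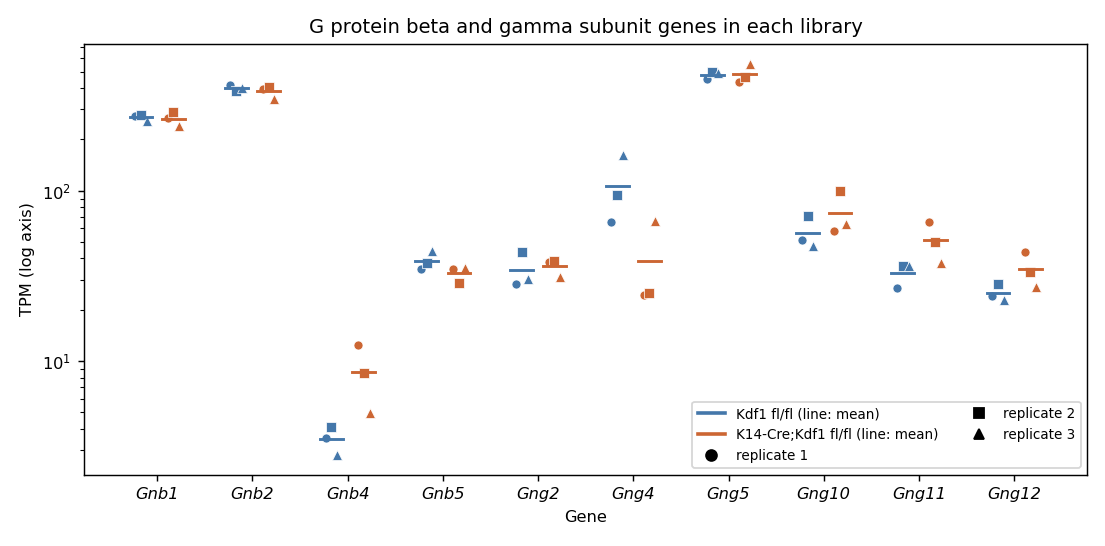
TPM (log axis) of the 10 beta and gamma subunit genes in each library, with circles, squares and triangles for replicates 1, 2 and 3 and a line at each group mean (n = 3 per group). *Gng5*, *Gnb2* and *Gnb1* stand above 230 TPM in every library, *Gnb4* has the lowest level in both groups, and *Gng4* spreads the most, from 24.4 to 162 TPM.

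The widely used beta subunits differed little between the genotypes. *Gnb1* (gene identifier 14688) had 452, 435 and 459 CPM in control replicates 1, 2 and 3 and 396, 467 and 406 CPM in cKO. *Gnb2* (14693) had 342, 297 and 352 against 297, 325 and 289 CPM. In both genes cKO replicate 2 lay above control replicate 2 and the groups overlapped. Their log2 fold changes, cKO minus control, were −0.08 (SE 0.12) and −0.12 (SE 0.12).

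*Gnb4* (14696), which is close to *Gnb1* in sequence and forms dimers of the same kind, was higher in every cKO library. It had 13.2, 14.2 and 11.2 CPM in the control libraries and 39.6, 30.6 and 19.1 CPM in the cKO libraries. The control values lay close together, whereas the cKO values were spread and replicate 1 was the highest. The means were 12.9 ± 1.50 and 29.8 ± 10.3 CPM (SD, n = 3 per group). The fitted log2 fold change was 1.21 (SE 0.27), which carries the uncertainty of read assignment given above. Without cKO replicate 1 it was 0.96, the lowest value when single libraries were left out, and without replicate 3 of that group it was 1.46, the highest. The endothelial and immune marker sums of the cKO libraries stood in the same order as *Gnb4*, with 767, 413 and 232 TPM and 494, 214 and 137 TPM in replicates 1, 2 and 3. So did the neutrophil sums, with 383, 167 and 152 TPM, the dental papilla sums, with 6102, 5709 and 4820 TPM, and the muscle sums, which were low, with 11.1, 7.83 and 3.43 TPM. Not all genes of the papilla list shared its order. The erythroid sums did not have the order of *Gnb4*, with 7198, 4461 and 4832 TPM in cKO replicates 1, 2 and 3. Nor did the dental epithelial sums, with 5324, 4882 and 8031 TPM, or the neural and Schwann cell sums, with 119, 164 and 209 TPM. The part of these markers in the difference was not tested.

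*Gnb5* (14697) is the divergent beta subunit, which pairs with the RGS proteins that carry a gamma-like domain in place of a gamma subunit. It had 39.2, 40.6 and 54.2 CPM in control and 35.6, 31.7 and 41.0 CPM in cKO libraries. Each cKO library was below the control library with the same number, but the groups overlapped, and the log2 fold change was −0.31 (SE 0.17).

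The largest difference among the gamma genes was in *Gng4* (14706), a subunit known mainly from the nervous system. It had 111, 151 and 295 CPM in control replicates 1, 2 and 3 and 37.3, 41.8 and 109 CPM in the cKO replicates. Every cKO library was below every control library, but only just, since cKO replicate 3 came within 3 CPM of control replicate 1. In TPM these same libraries overlapped, with 66.0 and 65.3 TPM. The group means were 186 ± 96.8 and 62.6 ± 40.0 CPM (SD, n = 3 per group), so the SD was more than 50% of the mean in each group, and the log2 fold change was −1.57 (SE 0.51).

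Much of that spread followed the replicate number. Replicate 3 was the highest and replicate 1 the lowest in both groups, and cKO replicates 1, 2 and 3 stood at 0.335, 0.276 and 0.368 of the control replicate with the same number. Across all genes, the deviations from the group mean of same-numbered libraries correlated at 0.133, 0.344 and 0.515 in replicates 1, 2 and 3. The numbers were read as pairs for this reason alone. For replicate 1 the reason is weak, since cKO replicate 1 correlated at 0.144 with control replicate 2. The same-number ratios and the block below rest on this reading. When the fit held the replicate number as a block, the SE of the log2 fold change of *Gng4* was 0.13 in place of 0.51, and the log2 fold change −1.62. Leaving out control replicate 3 gave −1.08 and leaving out cKO replicate 3 gave −2.22. The summed TPM of 6 neural and Schwann cell markers, 204, 273 and 417 in control and 119, 164 and 209 in cKO replicates 1, 2 and 3, had the same order within each group. That order rested on *Tubb3*, a neuronal tubulin, since the other 5 summed to 40.7, 46.1 and 55.8 in control and 54.4, 49.5 and 68.3 in cKO replicates, and 3 of the 6 had the higher mean in the cKO group. *Dspp*, a dentine matrix gene among the 10 dental papilla markers, also had the replicate order of *Gng4*. *Dspp* had 200, 842 and 1336 TPM in control and 7.35, 32.3 and 181 TPM in cKO replicates 1, 2 and 3. The sum of those 10 papilla markers had another order, with 1961, 9236 and 5864 TPM in control and 6102, 5709 and 4820 TPM in cKO replicates. In that list 7 of the 10 had the higher mean in the cKO group. The summed TPM of the 10 dental epithelial markers was, like *Gng4*, lower in cKO and highest in replicate 3 of both groups, but lowest in replicate 2. It was 9620, 8196 and 11259 in control and 5324, 4882 and 8031 in cKO replicates 1, 2 and 3. The part of these genes in the difference was not tested.

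**Figure D2:**
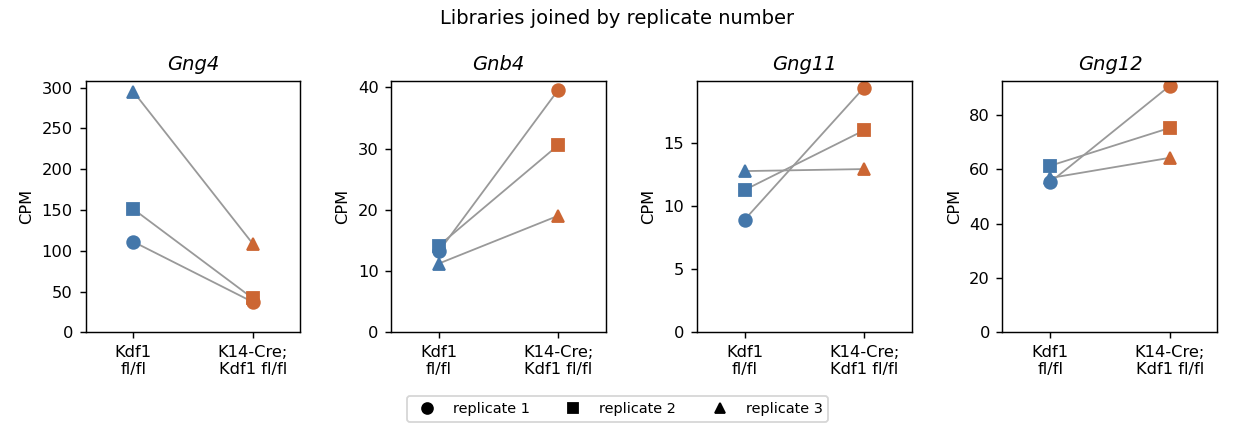
CPM (linear axes from 0) of *Gng4*, *Gnb4*, *Gng11* and *Gng12* in the control and cKO libraries, with a grey line joining libraries of the same replicate number (circle 1, square 2, triangle 3). The 3 lines fall for *Gng4* and rise for *Gnb4*, and for *Gng11* the line of replicate 3 is nearly flat, from 12.8 to 12.9 CPM.

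*Gng11* (66066), the gene with the serine codon in the sequences above, had 8.92, 11.3 and 12.8 CPM in control and 19.4, 16.0 and 12.9 CPM in cKO libraries. The groups did not overlap, yet the lowest cKO library was level with the highest control library. The log2 fold change was 0.55 (SE 0.22), and 0.41 without cKO replicate 1. The ratio to the control library with the same number was 2.17, 1.42 and 1.01 in replicates 1, 2 and 3. The cKO libraries themselves stood in the order of the 5 marker sums that shared the order of *Gnb4*, which are of cKO libraries and not ratios. The part of these markers in the difference was not tested here either.

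*Gng12* (14701), a broadly used gamma subunit, had 55.3, 61.3 and 56.8 CPM in control and 90.7, 75.2 and 64.2 CPM in cKO libraries. All cKO libraries were above the control libraries in CPM, with the means at 76.7 ± 13.3 and 57.8 ± 3.14 CPM (SD, n = 3 per group). In TPM cKO replicate 3 (27.4) was below control replicate 2 (28.4). The log2 fold change was 0.41 (SE 0.15), and leaving out cKO replicate 1 gave the smallest value, 0.29. The same-number ratios were 1.64, 1.23 and 1.13. The cKO libraries again stood in the order of the cKO marker sums that shared the order of *Gnb4*, and the part of these markers was not tested.

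*Gng5* (14707), the most abundant gamma gene, had 70.9, 72.5 and 81.6 CPM against 60.7, 68.7 and 90.6 CPM in the cKO group. *Gng2* (14702) had 56.3, 82.7 and 65.3 against 68.3, 75.8 and 63.5 CPM, and *Gng10* (14700) had 25.3, 33.3 and 25.1 against 25.7, 47.8 and 32.4 CPM. All 3 overlapped between the groups. Their log2 fold changes were −0.03 (SE 0.17), 0.02 (SE 0.16) and 0.34 (SE 0.25). The sign for *Gng5* was not stable, with 0.03 under scaling by library size alone, and it turned for *Gng2* and *Gng5* when single libraries were left out.

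Considered as a group, 5 of the 10 members had a positive log2 fold change and the median was −0.0053, beside −0.0043 over the 14131 genes tested. Groups did not overlap in CPM in *Gnb4*, *Gng11* and *Gng12*, which were higher in cKO, and in *Gng4*, which was lower, where 14.5% of all genes tested were higher and 16.2% lower without overlap. The study's criterion asks for a log2 fold change of 1 or more in size and an adjusted p no higher than 0.05. In edgeR (quasi-likelihood, Benjamini-Hochberg) no member met it, beside 0.432% of all genes, and 4 of the 10 had an unadjusted p under 0.05, beside 24.5% of all genes. *Gnb4* (higher) and *Gng4* (lower) met it in DESeq2, where 6.94% of all genes met it, 5.05% as higher and 1.88% as lower. They also did so in edgeR with the replicate block, where 6.09% met it, 4.16% as higher and 1.92% as lower. Since the members were chosen with this contrast known, nothing is read from these counts.

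**Figure D3:**
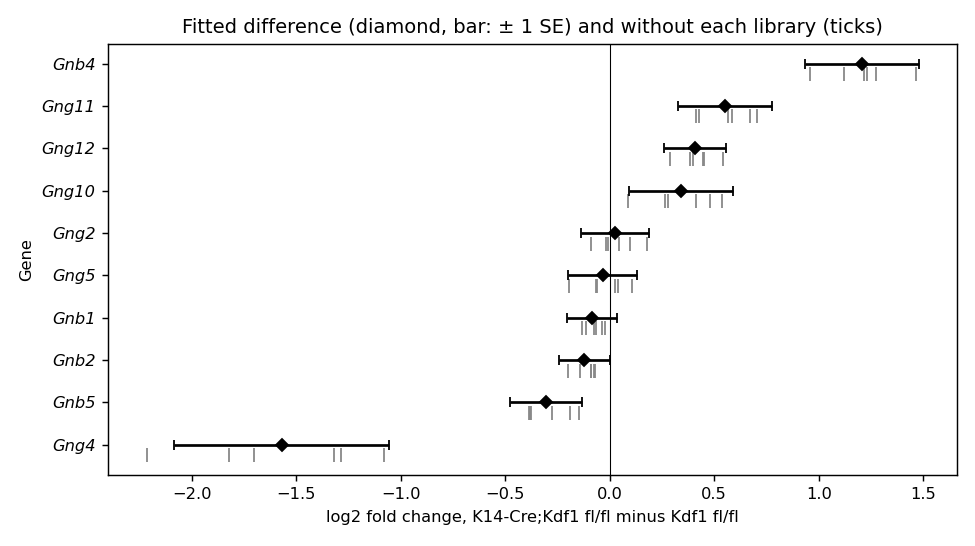
Fitted log2 fold change of each member, cKO minus control (diamond), with 1 SE to either side (bar) and the values when each of the 6 libraries was left out (grey ticks). *Gnb4* stays between 0.96 and 1.46 and *Gng4* between −2.22 and −1.08, while the ticks of *Gng2* and *Gng5* lie on both sides of 0.

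The other beta and gamma genes of the table were low. *Gnb3*, a beta subunit of cone photoreceptors, had 1, 3 and 2 counts in control and 2, 15 and 4 in cKO libraries, and *Gng13*, known from taste and olfactory cells, had 2 counts in cKO replicate 2 and 0 elsewhere. Neither passed the filter. *Gng7* was at 7.09 ± 0.743 and 7.72 ± 1.02 TPM (SD, n = 3 per group), and the fitted difference was 0.05 on the log2 scale (SE 0.19). *Gng3*, a neuronal subunit, was at 2.01 ± 0.338 and 3.79 ± 1.94 TPM, and *Gng8* at 1.02 ± 0.800 and 2.75 ± 1.47 TPM, and both overlapped between the groups. *Gngt2*, the gamma subunit of cones that is also found in blood leukocytes, had 8, 10 and 13 counts against 42, 31 and 13 counts, a difference of 1.49 on the log2 scale (SE 0.50). In TPM its groups overlapped, with 4.59 in cKO replicate 3 and 4.62 in control replicate 3. The order of *Gngt2* in the cKO libraries was that of the endothelial, immune, neutrophil, dental papilla and muscle marker sums. The part of these markers in it was not tested.

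Because each dimer needs a beta and a gamma subunit, the TPM were also summed over all beta and all gamma genes. The sums were of like size in control libraries, with 711 ± 13.3 TPM of beta and 750 ± 78.7 TPM of gamma genes (SD, n = 3). In cKO libraries they were 689 ± 58.3 and 743 ± 53.3 TPM, and both overlapped with the control libraries. The make-up of the beta sum was led by the same genes in both groups, and only the small *Gnb4* share did not overlap. *Gnb2* took 56.1% ± 1.37 and 55.5% ± 0.372 of it, *Gnb1* 37.9% ± 1.43 and 38.4% ± 0.925, and *Gnb4* 0.487% ± 0.0909 and 1.23% ± 0.476.

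The gamma sum was led by *Gng5*, with 64.4% ± 3.88 in control and 65.0% ± 4.21 in cKO libraries (SD, n = 3 per group). *Gng4* took 9.90%, 11.9% and 20.2% in the control and 3.52%, 3.39% and 8.27% in the cKO libraries. The *Gng4* shares did not overlap between the groups, and the means differed by −8.92 percentage points. *Gng11* took 4.39% ± 0.273 and 6.98% ± 2.35, again without overlap, and *Gng10* 7.55% ± 1.59 and 9.92% ± 3.06, with overlap. Shares carry the uncertainty of *Gng5*, *Gng10*, *Gng2* and *Gnb4* given above, and say nothing of the proteins, which were not measured.

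**Figure D4:**
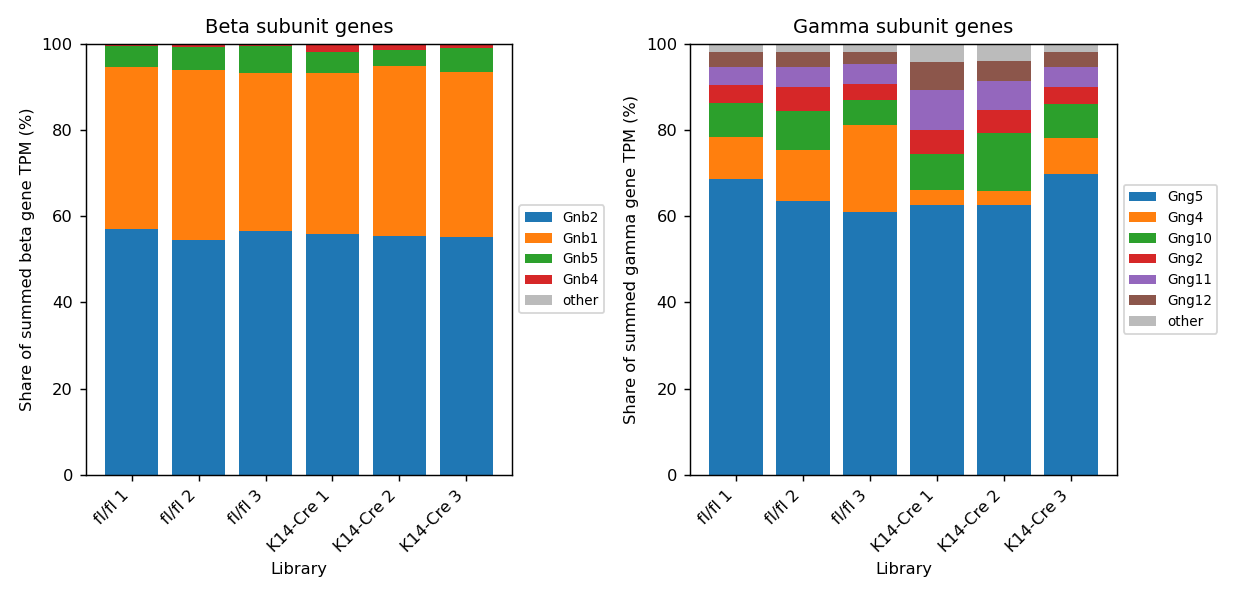
Share (%) of the summed TPM of all beta (left) and all gamma (right) genes taken by each gene in each library, with control replicates 1 to 3 (fl/fl) on the left and cKO replicates 1 to 3 (K14-Cre) on the right of each panel. *Gnb2* and *Gnb1* fill most of the beta bars in all libraries, and the *Gng4* part of the gamma bars is 9.90% to 20.2% in control and 3.39% to 8.27% in cKO libraries.

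To see how the partners of the beta and gamma subunits compared, 88 gene symbols in 5 lists were examined, of which 70 passed the filter. None met the criterion in edgeR with Benjamini-Hochberg adjustment, beside 0.432% of all genes tested. Of the 70, 16 were higher and 4 lower in cKO mice at an unadjusted p under 0.05, beside 13% and 11.6% of all genes tested. In DESeq2 9 met the criterion, all higher, beside 5.05% of all genes that were higher, and in edgeR with the replicate block 4, all higher, beside 4.16%. These 4 were among the 9. The median log2 fold change of the 70 genes was 0.08.

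Most alpha subunits differed little. Of 13 tested, none met the criterion in edgeR, DESeq2 or the fit with the block, beside 0.432%, 6.94% and 6.09% of all genes tested. The median log2 fold change was 0.07. The 1 gene with an unadjusted p under 0.05 in edgeR, beside 24.5% of all genes tested, was *Gnao1*, an alpha subunit known from neurons. It had 13.3, 21.6 and 15.4 CPM in control and 52.6, 22.8 and 25.4 CPM in cKO libraries. Its groups did not overlap, the log2 fold change was 1.00 (SE 0.36), and the adjusted p was 0.150 in edgeR and 0.0548 in DESeq2 (Benjamini-Hochberg). *Gnao1* was named after its values were seen. *Gnas*, the stimulatory alpha subunit, was far more abundant than any member, with 2286 ± 176 TPM in control and a log2 fold change of 0.05 (SE 0.17). *Gnai2*, an inhibitory alpha subunit, was at 426 ± 23.2 TPM with 0.15 (SE 0.12), and *Gna12* at 113 ± 17.1 TPM with −0.15 (SE 0.22). The adjusted p values of the 3 genes were 0.886, 0.483 and 0.712 (edgeR, Benjamini-Hochberg).

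Effectors and the kinases that bind the dimer held 5 of the 9 genes that met the criterion in DESeq2. Of 22 tested, 9 were higher and 1 was lower at an unadjusted p under 0.05 in edgeR, beside 13% and 11.6% of all genes. Without overlap 8 were higher and 1 lower, beside 14.5% and 16.2%, and the median log2 fold change was 0.84. *Adcy5*, an adenylyl cyclase, was at 16.1 ± 11.5 CPM in cKO and 3.41 ± 0.561 CPM in control mice (SD, n = 3 per group), and its fitted difference was 2.23 on the log2 scale (SE 0.51). *Plcb1*, a phospholipase C, was at 8.88 ± 5.18 and 2.64 ± 0.463 CPM with 1.75 (SE 0.43), and *Grk3*, a receptor kinase drawn to the membrane by the beta-gamma dimer, at 29.5 ± 15.9 and 10.1 ± 3.24 CPM with 1.54 (SE 0.46). *Adcy5* and *Plcb1* did not overlap between the groups, whereas *Grk3* did, with cKO replicate 3 at 12.5 CPM below control replicate 2 at 13.9 CPM. The adjusted p values of *Adcy5*, *Plcb1* and *Grk3* were 0.0735, 0.0841 and 0.114 in edgeR, 0.000373, 0.00361 and 0.00990 in DESeq2, and 0.0387, 0.0288 and 0.0262 in edgeR with the replicate block, all with Benjamini-Hochberg adjustment. *Prex2*, an exchange factor for Rac, and *Adcy7*, a cyclase that the dimer stimulates, met the criterion in DESeq2 but in edgeR only when cKO replicate 3 was left out, with log2 fold changes of 1.24 (SE 0.31) and 1.07 (SE 0.31) over all 6 libraries.

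The most abundant genes of the effector list showed no such rise. *Plcb3*, *Grk2* and *Prex1* had log2 fold changes of −0.33 (SE 0.17), −0.12 (SE 0.11) and −0.25 (SE 0.18), and adjusted p values of 0.275, 0.535 and 0.439 (edgeR, Benjamini-Hochberg). *Pik3cg* and *Pik3r5*, named like the next pair after their values were seen because they encode the catalytic and a regulatory subunit of the PI3K that the dimer activates, had 0.84 (SE 0.51) and −0.62 (SE 0.40), with adjusted p values of 0.349 and 0.378 in the same test. The other regulatory subunit, *Pik3r6*, had 0.88 (SE 0.39), and *Pik3cb*, the catalytic subunit of another PI3K that the dimer can activate, had −0.44 (SE 0.17), with adjusted p values of 0.217 and 0.178 in that test. Groups did not overlap in CPM in *Pik3r6*, which was higher in cKO, nor in *Pik3cb*, which was lower. In TPM *Pik3cb* did not overlap either, but *Pik3r6* did, with 1.24 in cKO replicate 2 and 1.3 in control replicate 1. The endothelial and immune marker sums were higher on average in the cKO group too, and their part in the effector differences was not tested.

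Regulators of G protein signalling (RGS), which speed up GTP hydrolysis by the alpha subunit and so return the dimer to it, were mixed. Of 15 tested, 5 were higher and 2 lower at an unadjusted p under 0.05 in edgeR, beside 13% and 11.6% of all genes tested. The median log2 fold change was 0.46. *Rgs7bp*, which anchors the RGS proteins bound to *Gnb5*, was low, at 0.742 ± 0.294 CPM in control and 2.83 ± 0.533 CPM in cKO mice, with a log2 fold change of 1.92 (SE 0.40). *Rgs2* was at 14.5 ± 1.95 and 29.9 ± 9.51 CPM with 1.04 (SE 0.25). Adjusted p values for *Rgs7bp* and *Rgs2* were 0.0679 and 0.0803 in edgeR, 0.00405 and 0.00428 in DESeq2, and 0.0298 and 0.0556 in edgeR with the replicate block (Benjamini-Hochberg). *Rgs4* and *Rgs16* met the criterion in DESeq2 but not in edgeR over all 6 libraries with or without the block, and the SD of *Rgs16* in cKO mice, 5.34 CPM, was larger than its mean of 5.18 CPM. *Rgs3*, *Rgs5* and *Rgs12*, the most abundant of the list, had log2 fold changes of −0.33 (SE 0.21), 0.83 (SE 0.31) and 0.19 (SE 0.14), and none met the criterion in edgeR, DESeq2 or with the block.

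Genes for assembly and lipid attachment, which hold the CCT chaperonin that folds the beta subunit, the prenyltransferases and the enzymes that trim the CaaX box, showed small differences. None of 17 met the criterion in edgeR, DESeq2 or with the block, beside 0.432%, 6.94% and 6.09% of all genes tested. The median log2 fold change was −0.09. At an unadjusted p under 0.05 in edgeR 1 was lower, beside 11.6% of all genes tested. The chaperonin genes *Cct2*, *Tcp1* and *Cct5*, the most abundant of the list, had log2 fold changes of 0.10 (SE 0.11), 0.01 (SE 0.14) and −0.04 (SE 0.13). Of 3 other regulators of alpha subunits, *Gpsm1*, *Gpsm2* and *Gpsm3*, none met the criterion in the same 3 fits, beside the same shares of all genes. Their log2 fold changes were 0.49 (SE 0.23), −0.12 (SE 0.14) and 0.75 (SE 0.29).

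**Figure D5:**
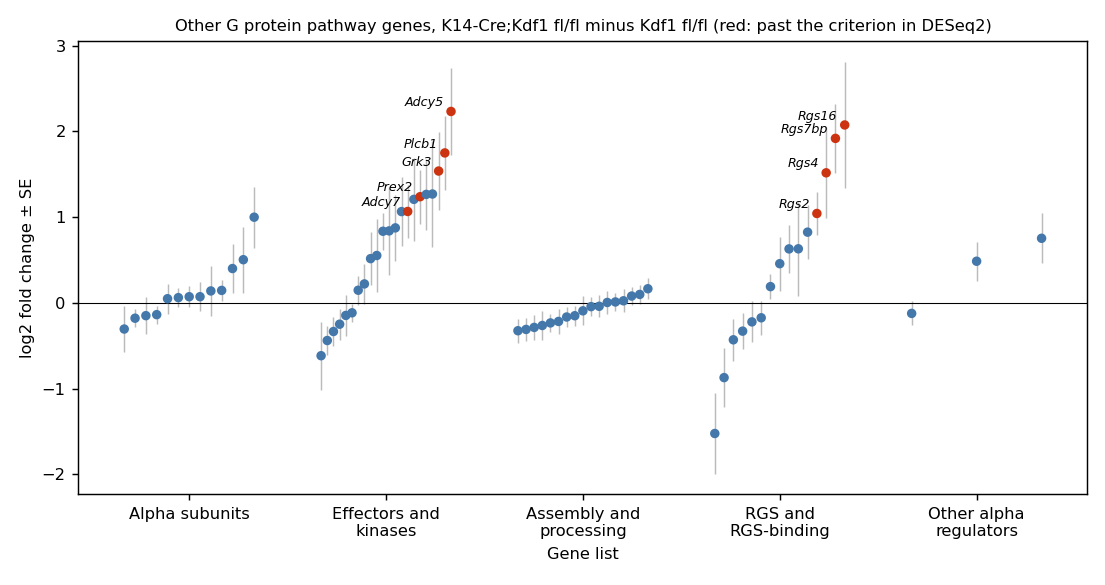
Log2 fold change, cKO (*K14-Cre;Kdf1* fl/fl) minus control, of the 70 tested genes in 5 lists of the G protein pathway, each point a gene with 1 SE to either side, ordered by value within a list. The 9 genes in red, in the effector and RGS lists, met the criterion in DESeq2, and the 17 assembly and processing genes lie between −0.32 and 0.17.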

How the data were processed

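RNA-seq of the IEE was measured in 6 libraries, and groups follow the sample titles. The deposited estimated counts are the authors' reads per gene, without normalisation. The deposited TPM and FPKM are the authors' values per transcript length and library. The submitters' processing notes name BWA 0.7.12, Picard 2.6.0 and StringTie; roles, genome build and the test behind the study's criterion are not given in the sources used here. Columns of group means were not used.

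Estimated counts were rounded, filtered with filterByExpr (14131 genes) and scaled by TMM (factors 0.950 to 1.03). edgeR 4.0.16 in R 4.3.3 was fitted across all genes (robust quasi-likelihood, two-sided) with Benjamini-Hochberg adjustment. DESeq2 1.42.0, limma 3.58.1 on log2(TPM + 1) and log2(TPM + 0.1), other scalings and filters, the replicate block and the omission of each library were alternatives. The procedure was tested on simulated counts. Libraries were not duplicates: within-group counts differed by 34.7 to 71.6 times the sampling variance. Same-numbered libraries deviated together (correlations 0.133, 0.344 and 0.515, against −0.428 to 0.144 for other pairs), so numbers were read as pairs, from the data and not from the design. The labels call the libraries biological replicates, but name no litters.

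The members, gene lists and tests were chosen with earlier results of these data known. Genes named are the members, the other beta and gamma genes, list genes past the criterion in edgeR, DESeq2 or the block fit, and the 3 of highest mean TPM per list. *Kdf1* checked the deletion, and *Pik3cg*, *Pik3r5*, *Pik3r6*, *Pik3cb*, *Gnao1*, *Tubb3* and *Dspp* were added after their values were seen.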

Additional observations from a re-analysis of the deposited data

How the results depend on the processing

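No member met the criterion in edgeR, whereas 2 (*Gnb4* and *Gng4*) did with DESeq2 and 2 with the replicate block. When single libraries were left out the count was 0 to 1, and the 1 was *Gnb4* without cKO replicate 3. Of the pathway list genes 0 met it in edgeR, 9 with DESeq2, 4 with the block and 0 to 5 when single libraries were left out, with 5 reached without cKO replicate 3. With the block, calls also changed among the marker genes (dental papilla from 1 higher to 5 higher and 1 lower, dental epithelium from 1 to 2 lower, neural from 0 to 1 lower). Members without overlap numbered 4 in CPM (30.7% of all genes), 3 with library size alone (30.2%), 2 in TPM at both pseudocounts (28.1%), and 4 to 6 with 1 library fewer (35.1% to 49.5%). The *Gng4* share of the gamma sum differed by −8.92 percentage points in TPM and by −23.2 points in counts, which are not scaled for length, and by −11.0 to −5.84 points with single libraries left out. Over all genes the count past the criterion was 61 (20 higher), 980 with DESeq2 (714 higher), 860 with the block (588 higher), 7 in edgeR with DESeq2's size factors (1 higher), 9 with library size alone (2 higher), 103 without the filter (36 higher), 6 with at least 10 counts in every library (1 higher), 31 and 56 in limma on log2(TPM + 1) and log2(TPM + 0.1), and 1 to 465 with single libraries left out, with 465 without cKO replicate 3, 16 without control replicate 2 and 1 without any of the other 4. The cause of these shifts was not tested. The directions of *Gnb1*, *Gnb2*, *Gnb4*, *Gnb5*, *Gng4*, *Gng10*, *Gng11* and *Gng12* held in 8 other settings and in the 6 fits with 1 library left out. With 3 libraries per group, and SDs above 50% of the mean for *Gng4*, small differences cannot be resolved.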
